A study of Arabidopsis thaliana with 12 samples.

Results

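Plant defensins are small, secreted, cysteine-rich peptides held together by disulfide bridges, and many of them act against fungi. In Arabidopsis, PDF1.2 is the usual readout of the defence branch in which jasmonate and ethylene act together through ERF transcription factors, while MYC transcription factors direct jasmonate responses into another branch. The genes of the PDF1 and PDF2 classes are arranged partly in neighbouring pairs or clusters, and close relatives can be hard to tell apart by hybridisation.

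The 4 genes described here are PDF1.2 (AT5G44420, chromosome 5), PDF1.2b (AT2G26020, chromosome 2), PDF1.4 (AT1G19610, chromosome 1) and PDF2.1 (AT2G02120, chromosome 2). Each of the 4 loci has 1 probe set in the platform annotation, so they make up 4 of the 22746 probe sets that are not controls. They were chosen by their measured values on these same arrays, on which they had been seen to differ between genotypes. Their levels and differences below are therefore a description, and no test is given for them. The probe set of PDF1.2b carries the array maker's suffix for probes that can match other sequences. PDF1.2, PDF1.2b and their near-identical relative PDF1.2c may share signal, and PDF1.2c and the related PDF1.3 have no named probe set here.

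The 12 Affymetrix arrays read total RNA of entire Arabidopsis thaliana seedlings (Col-0 ecotype) at 5 days post germination, with 3 arrays in each of 4 genotypes, numbered replicates 2, 3 and 4. The study set 3 stomatal lineage mutants beside wild type to profile the states of that lineage: in the labels, spch seedlings have an epidermis of pavement cells alone, scrm-D;mute seedlings (the double mutant) one of nearly all meristemoids (the self-renewing stomatal precursors), and scrm-D seedlings one of guard cells. SPCH and MUTE encode transcription factors of the lineage, and scrm-D, a dominant allele of their partner gene SCRM, is shared by the single and the double mutant. All 4 genotypes, wild type (WT) included, were stratified for 2 days at 4 °C and then kept at 21 °C under 18 h light and 6 h dark. The labels call the replicates biological without saying how they were grown apart, and give no lesion positions, so errors measure the spread between these samples. For the scrm-D samples, 1 descriptive field reads scrm-D;mute while titles and genotype fields read scrm-D, and the groups follow the titles.

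Expression is given as log2 values, on which 1 unit is a doubling, and a level of 4.99, the 95th percentile of bacterial control transcripts that were absent, serves as the background level. Array medians lay between 6.39 and 6.53, and over all probe sets r was 0.987 to 0.995 between replicates of a genotype. SPCH read between 5.11 and 5.41 in spch, against 6.15 to 6.71 in WT, and MUTE averaged 10.78 ± 0.20 in scrm-D;mute, against 4.48 ± 0.05 in WT. Where the probes lie relative to either lesion is not given, so the MUTE value checks nothing about the mute label. Of 8 listed root markers 2 had a named probe set, the root hair expansin genes EXPA7 and EXPA18. They averaged 6.23 and 6.50 in WT, above background, in RNA labelled as whole seedling.

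The 4 defensin genes showed 3 patterns. PDF1.2 and PDF1.2b were highest in scrm-D, and their means were lower in spch and scrm-D;mute than in WT, with the scrm-D;mute and WT ranges overlapping. PDF1.4 was far higher in both genotypes that carry scrm-D than in WT, and moderately higher in spch. PDF2.1 was highest in WT and lowest in spch, with the 2 scrm-D genotypes between. Each array reads a whole seedling's RNA, so fewer cells of a type and less RNA per cell cannot be told apart in any of these values.

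**Figure D1:**
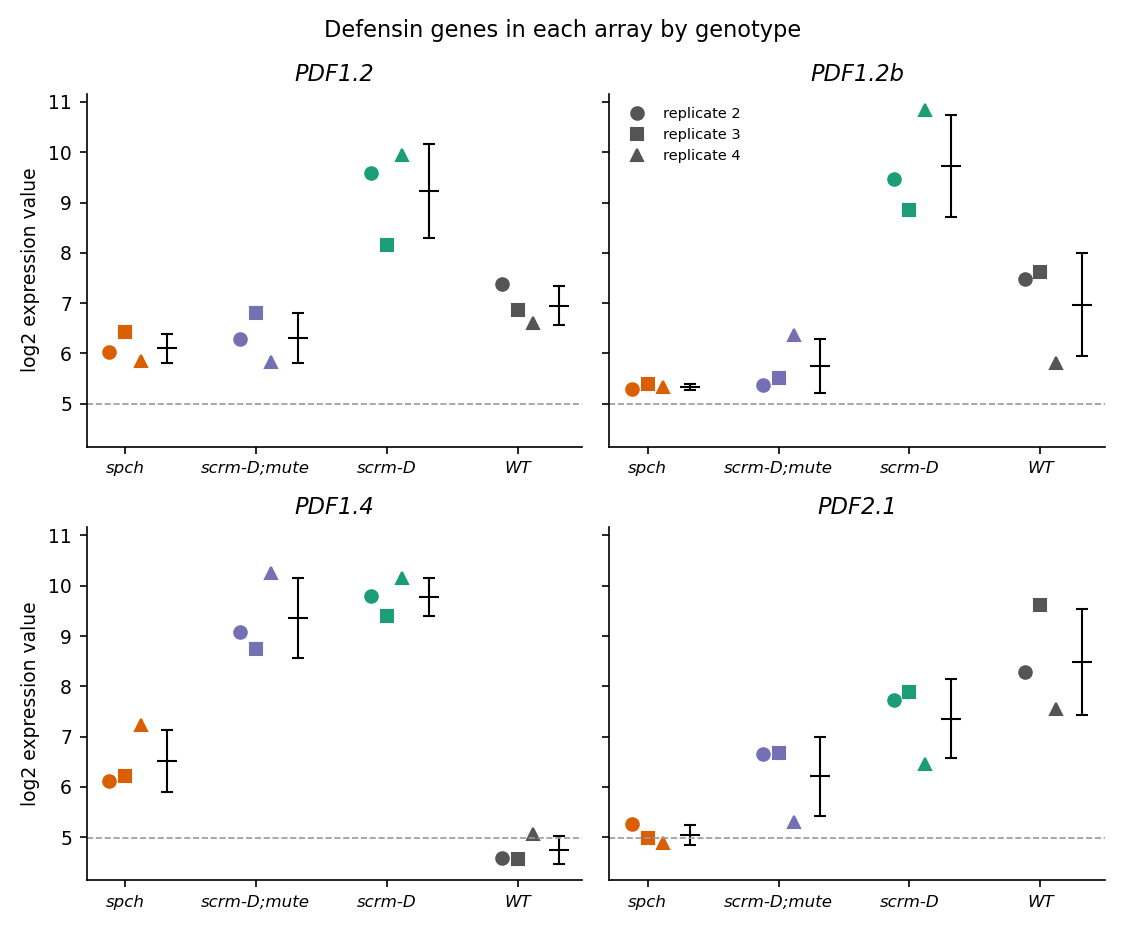
Log2 expression values (vertical axis) of PDF1.2, PDF1.2b, PDF1.4 and PDF2.1 on each of the 12 arrays by genotype (horizontal axis), with circles, squares and triangles for replicates 2, 3 and 4, bars for the mean and SD of 3 arrays, and a dashed line at the background level of 4.99. PDF1.4 read between 9.39 and 10.16 in scrm-D and between 4.58 and 5.07 in WT, while PDF2.1 read between 4.89 and 5.26 in spch and between 7.55 and 9.61 in WT.

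PDF1.2, the jasmonate and ethylene readout, read 6.03, 6.42 and 5.86 on the spch arrays, 6.28, 6.81 and 5.83 on the scrm-D;mute arrays, 9.58, 8.16 and 9.94 on the scrm-D arrays and 7.38, 6.87 and 6.61 on the WT arrays (replicates 2, 3 and 4 in each). The 3 scrm-D values lay above all 9 others, whereas the scrm-D;mute values overlapped those of both spch and WT. Its mean was 6.10 ± 0.29 in spch, 6.31 ± 0.49 in scrm-D;mute, 9.23 ± 0.94 in scrm-D and 6.95 ± 0.39 in WT (SD, n = 3 each). In scrm-D, PDF1.2 was thus 4.85-fold above WT, 7.59-fold above scrm-D;mute and 8.73-fold above spch. The spch and WT ranges were apart by a small gap, with WT 1.80-fold higher, and the scrm-D;mute and WT ranges were not apart, with WT 1.56-fold higher.

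PDF1.2b, which encodes a defensin nearly identical to PDF1.2, read 5.29, 5.40 and 5.33 in spch, 5.37, 5.52 and 6.36 in scrm-D;mute, 9.48, 8.86 and 10.85 in scrm-D and 7.49, 7.63 and 5.80 in WT. Again the scrm-D arrays stood above all others, and the WT array of replicate 4 lay below 1 of the scrm-D;mute arrays. The means were 5.34 ± 0.06 in spch, 5.75 ± 0.53 in scrm-D;mute, 9.73 ± 1.02 in scrm-D and 6.97 ± 1.02 in WT. The scrm-D mean of PDF1.2b was 6.75-fold that of WT, 15.8-fold that of scrm-D;mute and 20.9-fold that of spch. In spch and on scrm-D;mute replicates 2 and 3 it read little above the background level of 4.99. The folds against these genotypes may therefore be limited by that level. Between arrays of the same number, scrm-D minus WT was 1.99, 1.23 and 5.05 on the log2 scale for replicates 2, 3 and 4, so the size of this difference depended on the replicate 4 arrays. With the replicate 4 arrays of all genotypes left out, an alternative added once the data had been seen, scrm-D minus WT was 1.61 and scrm-D;mute minus WT was −2.11, against −1.22 over all arrays.

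PDF1.4, a class 1 defensin gene, read 6.11, 6.21 and 7.23 in spch, 9.09, 8.73 and 10.26 in scrm-D;mute, 9.79, 9.39 and 10.16 in scrm-D and 4.60, 4.58 and 5.07 in WT. The WT mean lay under the background level, the spch arrays stood apart from those of every other genotype, and the 2 scrm-D genotypes overlapped. The means were 6.52 ± 0.62 in spch, 9.36 ± 0.80 in scrm-D;mute, 9.78 ± 0.38 in scrm-D and 4.75 ± 0.28 in WT. Taken against the background level, since WT was under it, PDF1.4 was at least 2.89-fold higher in spch, at least 20.7-fold higher in scrm-D;mute and at least 27.7-fold higher in scrm-D. It was 7.16-fold higher in scrm-D;mute than in spch and 9.58-fold higher in scrm-D than in spch.

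Between scrm-D;mute and scrm-D, both above background, the same-number differences of PDF1.4 were −0.70, −0.66 and 0.10, and the mean difference of −0.42 ± 0.37 (SE) was −0.11 without scrm-D;mute replicate 3 and −0.87 without scrm-D;mute replicate 4. Over the same-number pairs the PDF1.4 differences spread by 0.45 (SD) around −0.42, and the order of these 2 genotypes was not the same on every pair. The SE of 0.37 and the fits without 1 array leave this pairing out. For PDF1.2 and PDF1.2b scrm-D;mute minus scrm-D was −2.92 ± 0.39 and −3.98 ± 0.51 (SE).

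PDF2.1, a class 2 defensin gene, read 5.26, 4.98 and 4.89 in spch, 6.66, 6.67 and 5.31 in scrm-D;mute, 7.73, 7.89 and 6.46 in scrm-D and 8.29, 9.61 and 7.55 in WT. The spch arrays lay at about the background level and under all others, by only 0.04 from the lowest scrm-D;mute array, while scrm-D overlapped both scrm-D;mute and WT. Its mean was 5.04 ± 0.20 in spch, 6.21 ± 0.78 in scrm-D;mute, 7.36 ± 0.78 in scrm-D and 8.49 ± 1.05 in WT. Expressed as folds, WT exceeded spch 10.9-fold, scrm-D;mute 4.83-fold and scrm-D 2.18-fold. The difference between scrm-D and WT was −1.13 ± 0.51 (SE), and it was −0.56 without WT replicate 3, the highest WT array.

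Between scrm-D;mute and scrm-D, PDF2.1 differed by −1.07, −1.21 and −1.15 for replicates 2, 3 and 4, a spread of 0.07 (SD) around −1.14, although the levels within each genotype spanned more than 1 log2 unit. The ranges of the 2 genotypes overlapped only through scrm-D replicate 4, at 6.46. With the replicate number as a block, the standard errors were 0.18 for PDF1.4 and 0.30 for PDF2.1, against 0.37 and 0.51 without it, and 0.40 and 0.53 for PDF1.2 and PDF1.2b, against 0.39 and 0.51.

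The members also varied among replicates of a genotype in their own ways. PDF1.4 was highest on replicate 4 in 4 of 4 genotypes, as were 4.45% of all probe sets, and PDF2.1 was lowest on replicate 4 in 4 of 4 genotypes, as were 5.44% of all probe sets. PDF1.2 was lowest on replicate 4 in 3 genotypes and highest in scrm-D, and PDF1.2b was highest on it in 2 genotypes and lowest in 1. Deviations from the genotype means correlated over the 12 arrays with r = −0.704 between PDF1.4 and PDF2.1 and with r = 0.512 between PDF1.2 and PDF1.2b. For the levels themselves r was −0.291 and 0.935 for the same pairs, and between 0.384 and 0.470 for the other 4 pairs. These are descriptions over arrays that share genotypes and replicate numbers, and PDF1.2 and PDF1.2b may also share signal.

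**Figure D2:**
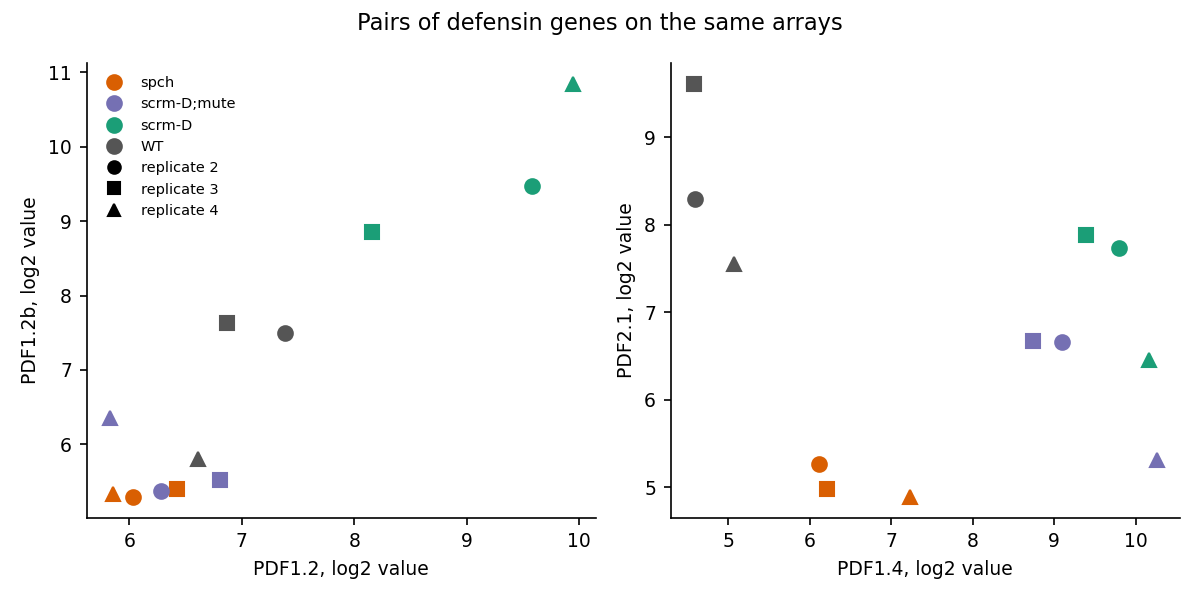
Log2 values of PDF1.2b against PDF1.2 (left) and of PDF2.1 against PDF1.4 (right) on the 12 arrays, with 1 point per array, coloured by genotype and shaped by replicate number. On the left the 3 scrm-D arrays lie apart at the upper right, and on the right the replicate 4 array (triangle) lies lowest and furthest right within each of the 4 genotypes.

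Counting ranges of 3 arrays that did not overlap, all 4 members separated spch from WT, as 35.1% of all probe sets did. The count was 3 of 4 between scrm-D and WT (30.0% of all probe sets), 2 of 4 between scrm-D;mute and WT (41.4%) and 2 of 4 between scrm-D;mute and scrm-D (28.4%). Since these differences are what the genes were selected on, nothing follows from these counts. The 3 comparisons against WT share its arrays, and those with scrm-D;mute share its arrays as well.

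Cell type markers also differed between the genotypes. Of 14 listed guard cell and stomatal lineage genes 5 had a named probe set. The log2 of their summed signal was 7.25 to 10.02 in spch, 11.75 to 12.16 in scrm-D;mute, 12.98 to 13.27 in scrm-D and 10.70 to 11.09 in WT. This sum pools genes of opposite direction, so it is no measure of guard cells. In scrm-D;mute SPCH and MUTE lay above WT, and FAMA, BLUS1 and AT1G22690 lay below it. FAMA, which acts in the last division of the lineage, averaged 6.04 ± 0.37 in spch, 5.89 ± 0.24 in scrm-D;mute, 9.56 ± 0.12 in scrm-D and 6.90 ± 0.15 in WT. BLUS1, a kinase of guard cell light responses, averaged 5.46 ± 0.88 in spch, 6.07 ± 0.20 in scrm-D;mute, 10.01 ± 0.22 in scrm-D and 6.66 ± 0.27 in WT. Both were thus highest in scrm-D and lower in spch and scrm-D;mute than in WT. The means of PDF1.2 and PDF1.2b had these same directions, but their scrm-D;mute and WT ranges overlapped. SPCH and MUTE differed from this: SPCH averaged 5.31 ± 0.17 in spch, 10.77 ± 0.18 in scrm-D;mute, 7.57 ± 0.53 in scrm-D and 6.36 ± 0.31 in WT. MUTE averaged 4.19 ± 0.17 in spch and 7.03 ± 0.51 in scrm-D, and was likewise highest in scrm-D;mute. The guard cell gene AT1G22690 read between 4.31 and 9.70 in spch, and averaged 8.01 ± 1.09 in scrm-D;mute, 12.69 ± 0.16 in scrm-D and 10.66 ± 0.25 in WT. The part of the markers in the defensin values was not tested.

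By limma over all probe sets, 0 of these 5 markers were higher and 3 lower in spch than in WT, where 9.60% of all probe sets were called higher and 9.93% lower. The counts were 4 and 0 in scrm-D (6.76% and 7.39%), 2 and 1 in scrm-D;mute (14.1% and 13.6%), and 2 and 3 in scrm-D;mute against scrm-D (7.45% and 5.94%). With the replicate block AT1G22690 was also called lower in spch (adjusted p = 0.0463), and with the 25S rRNA control as a covariate FAMA and BLUS1 were not (0.0825 and 0.256). Without spch replicate 4, limma also called AT1G22690 higher in scrm-D (0.00393) and lower in scrm-D;mute (0.000335) than in WT. BLUS1 was then called lower in scrm-D;mute too (0.0191). Other calls were lost: SPCH in scrm-D with the 25S rRNA covariate, and AT1G22690 in scrm-D;mute against scrm-D under an eBayes trend (0.0540 each). Of these 5 markers, only MUTE averaged under the background level in spch and in WT, and none did so in the other 2 genotypes. On spch replicate 4 the guard cell gene AT1G22690 read 4.31, against 9.70 and 9.64 on the other spch arrays, while on that array PDF1.2 read 5.86, PDF1.2b 5.33, PDF1.4 7.23 and PDF2.1 4.89. Of the root markers, EXPA7 fell by 0.92 in spch (limma, adjusted p = 0.0413) and EXPA18 was called lower there (0.000119), at 4.80 ± 0.23, under background, against 6.50 ± 0.40 in WT. The log2 of their sum was 6.02 to 6.15 in spch, against 7.05 to 7.63 in WT. For EXPA7 the call was lost without any 1 of the spch and WT arrays or scrm-D;mute replicate 3 (0.0566 to 0.148) and with the 25S rRNA covariate (0.418). The BLUS1 call in spch ended without WT replicate 2 or 4 (0.0810 and 0.0525) and in a fit of spch and WT alone (0.0652). In the other comparisons limma called 0 of the 2 root markers, with 1 at an unadjusted p under 0.05, in scrm-D;mute against scrm-D. The 25S rRNA control read 9.63 ± 1.25 in spch, 9.62 ± 2.31 in scrm-D;mute, 9.60 ± 0.56 in scrm-D and 7.11 ± 0.49 in WT, so its mean was higher in every mutant, though its lowest scrm-D;mute array, at 6.96, lay within the range of the WT arrays. With it as a covariate, PDF2.1 differed by −4.28 between spch and WT, against −3.44 without it.

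The rest of the defensin family was not chosen for its differences, so it cannot be set against the 4 genes, which were. Of 11 other defensin genes on a list drawn up with earlier results of these data known, 8 had a named probe set. Of these, 5 genes, PDF1.1, PDF2.4, PDF2.6, LCR80 and LCR59, averaged between 3.81 and 4.60 in every genotype, under the background level, where a fall is hard to read. Of these 5, LCR80 in scrm-D;mute against WT (limma, adjusted p = 0.0730) passed under 2 alternatives (0.0331 and 0.0413), and the others were called under no setting tried. In spch 0 rose and 1 fell (9.60% and 9.93% of all probe sets were called higher and lower), and in scrm-D limma called 0 (6.76% and 7.39%), with 2 at an unadjusted p under 0.05. In scrm-D;mute 0 rose and 1 fell against WT (14.1% and 13.6%), and 0 rose and 2 fell against scrm-D (7.45% and 5.94%).

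PDF2.3, a class 2 defensin gene next to PDF2.1, read 10.75, 10.77 and 10.55 in spch, 10.68, 10.42 and 10.42 in scrm-D;mute, 11.31, 11.24 and 11.33 in scrm-D and 11.23, 11.44 and 11.29 in WT. The spch and scrm-D;mute arrays all lay under the scrm-D and WT arrays, which overlapped each other. PDF2.3 fell by 0.63 ± 0.11 in spch (SE, limma, adjusted p = 0.0019) and fell by 0.81 ± 0.11 in scrm-D;mute (0.000176), and it fell by 0.79 ± 0.11 in scrm-D;mute against scrm-D (0.000431). In scrm-D it differed from WT by −0.02 ± 0.11 (0.931).

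PDF2.5 averaged 5.94 ± 0.58 in spch, 5.96 ± 0.22 in scrm-D;mute, 6.94 ± 0.29 in scrm-D and 6.65 ± 0.54 in WT. It was lower in scrm-D;mute than in scrm-D by limma, at −0.98 ± 0.30 (adjusted p = 0.0477), a call that ended under 10 alternatives (adjusted p between 0.0504 and 0.152), among them leaving out any 1 array of these 2 genotypes, spch replicate 3 or WT replicate 2. Against WT it differed by −0.71 ± 0.30 in spch (0.124) and by −0.69 ± 0.30 in scrm-D;mute (0.108), which passed with the replicate block (0.0191 and 0.0170), and by 0.29 ± 0.30 in scrm-D (0.616). PDF2.2 differed by −0.12, −0.07 and 0.25 in spch, scrm-D;mute and scrm-D against WT, with a standard error of 0.11 and no call.

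**Figure D3:**
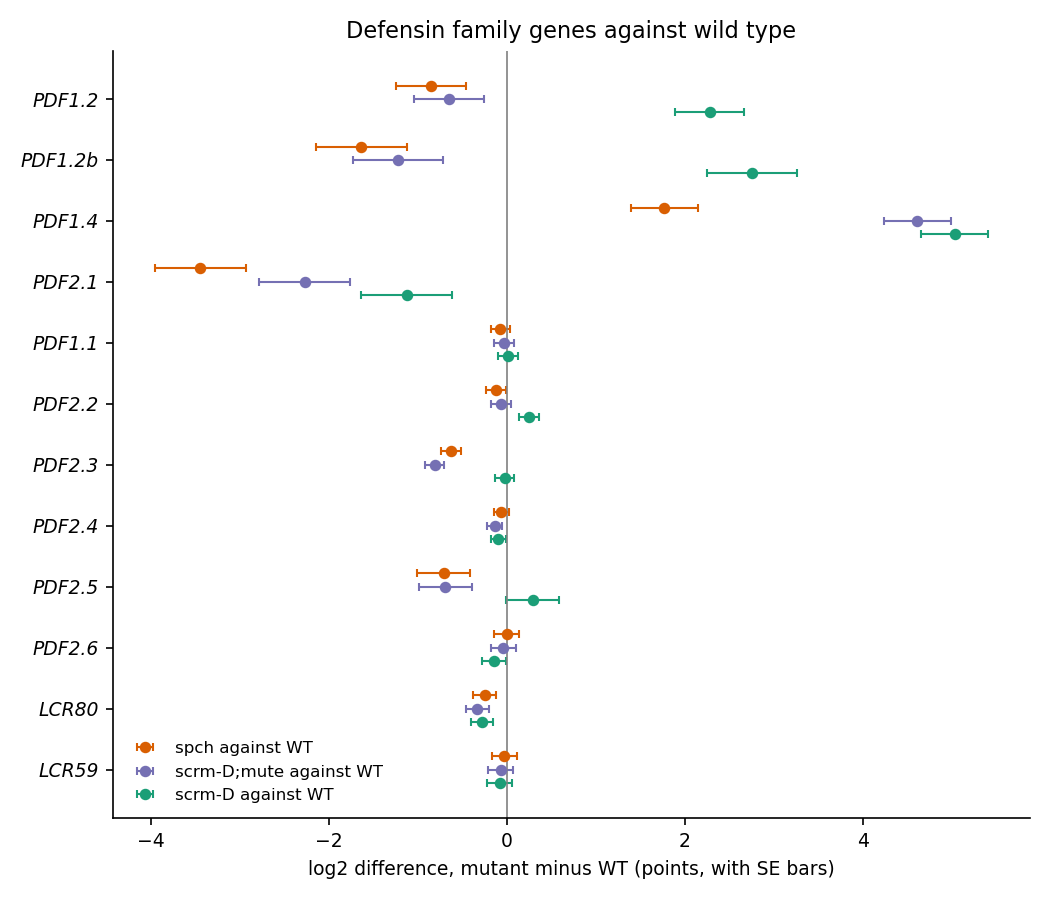
Log2 differences from WT (horizontal axis, points with SE bars from limma) of the 4 chosen defensin genes and the 8 other measured family genes (vertical axis), for spch, scrm-D;mute and scrm-D. The 4 chosen genes spread from −3.44 (PDF2.1 in spch) to 5.03 (PDF1.4 in scrm-D, with WT under background). The other 8 lie between −0.81 and 0.29, 5 of them at levels under background. The 4 genes were chosen for their differences on these same arrays, so nothing follows from their wider spread.

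Few genes that direct defensin expression could be read by name. The annotation used names no gene for 8794 of the 22810 probe sets, so a listed gene without a value here may still be on the array. Of 107 listed genes of jasmonate, ethylene, ERF, salicylate and pattern-triggered defence, 9 had a named probe set, and the median difference of these and the 8 defensins together was −0.10 in spch, −0.10 in scrm-D;mute and 0.02 in scrm-D against WT, beside −0.00, −0.01 and −0.01 for all probe sets. Of 17 listed ERF genes only 1, AT5G43410, had a named probe set, and it averaged under background, so the ERF genes could not be read here. None of the 8 listed further targets of the jasmonate and ethylene branch had a named probe set. Of the 9, JMT, SAG101 and AT5G43410 averaged under background in every genotype. In spch 1 of the 9 was called higher and 2 lower (9.60% and 9.93% of all probe sets), and in scrm-D;mute also 1 and 2 (14.1% and 13.6%). In scrm-D 1 was called higher and 1 lower (6.76% and 7.39%), and in scrm-D;mute against scrm-D 0 and 1 (7.45% and 5.94%). With 9 genes these counts are near the shares of all probe sets.

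Among jasmonate genes, OPCL1, which encodes an enzyme of jasmonate synthesis, averaged 6.13 ± 0.29 in spch, 6.70 ± 0.40 in the double mutant, 7.55 ± 0.49 in scrm-D and 7.12 ± 0.18 in WT. It fell by 0.99 ± 0.25 in spch (limma, adjusted p = 0.0146) and fell by 0.85 ± 0.25 in the double mutant against scrm-D (0.0410), and it differed by 0.43 ± 0.25 in scrm-D (0.317) and −0.42 ± 0.25 in the double mutant (0.247) against WT. The spch call ended without spch replicate 2 or 4 or WT replicate 2 (0.0511 to 0.0571) and with the 25S rRNA covariate (0.228), and the call against scrm-D ended under 9 alternatives (0.0504 to 0.149): a fit of these 2 genotypes alone, or without 1 of spch replicate 2, scrm-D replicate 3 or 4, double mutant replicate 2 or 3, or any WT array. The genotype means of OPCL1 ran in the same order as those of PDF1.2 and PDF1.2b.

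MYC4, a transcription factor of the other jasmonate branch, averaged 6.87 ± 0.43 in spch, 5.98 ± 0.20 in the double mutant, 6.29 ± 0.03 in scrm-D and 6.92 ± 0.31 in WT. It fell by 0.94 ± 0.20 in the double mutant (limma, adjusted p = 0.0045, and 0.0799 with the 25S rRNA covariate) and differed by −0.63 ± 0.20 in scrm-D (0.0592). The scrm-D difference passed under some alternatives and not under the others. Where it passed, the limma adjusted p ran from 0.0153 (without spch replicate 4) to 0.0487 (with the replicate block). MYC3, its close relative, differed by 0.05 to 0.19 with no call. JMT, which makes methyl jasmonate and lies 3 genes from PDF1.4, was called lower in all 3 mutants, but it averaged under the background level in every genotype, at 4.18 in spch, 4.19 in the double mutant, 4.27 in scrm-D and 4.87 in WT.

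In the ethylene list only EIN3, a master transcription factor of ethylene responses, had a named probe set. It rose by 0.45 ± 0.12 in spch (limma, adjusted p = 0.0207). This call ended without spch replicate 4 (0.0897), WT replicate 3 (0.0542) or WT replicate 4 (0.0791), and with the 25S rRNA covariate (0.242). The call also ended in a fit of spch and WT alone (0.0596) and without replicate 4 of every genotype (0.25). WRKY53, a transcription factor of pattern-triggered defence and senescence, averaged 5.20 ± 0.31 in spch, 6.65 ± 0.55 in the double mutant, 6.92 ± 0.74 in scrm-D and 5.54 ± 0.53 in WT. It rose by 1.12 ± 0.37 in the double mutant (0.0412) and by 1.39 ± 0.37 in scrm-D (0.0257), and both calls ended when 1 array was left out. These arrays were double mutant replicate 3 or 4, spch replicate 3, scrm-D replicate 2 and WT replicate 3 or 4 for the call in the double mutant (0.0542 to 0.156), and scrm-D replicate 2 or 4 and WT replicate 3 or 4 for the call in scrm-D (0.0530 to 0.106). The double mutant call also ended under an eBayes trend (0.0581). Without replicate 4 of every genotype both ended (0.0632 in the double mutant and 0.0511 in scrm-D). On the salicylate side GRX480, a glutaredoxin gene, differed by −0.10, −0.23 and 0.38 in spch, the double mutant and scrm-D, with no call.

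Thionins, a separate family of cysteine-rich defence peptides, included genes with differences as large as those of the defensins but in other patterns. THI2.2 read 11.27, 11.40 and 10.64 in spch, 5.90, 5.62 and 5.45 in the double mutant, 6.52, 6.42 and 5.49 in scrm-D and 9.58, 9.59 and 10.07 in WT. The 2 scrm-D genotypes thus lay under WT, and spch above it. THI2.2 rose by 1.36 ± 0.27 in spch (limma, adjusted p = 0.00402) and fell by 4.09 ± 0.27 in the double mutant (4.59e-07), and it fell by 3.60 ± 0.27 in scrm-D (4.25e-06), opposite in sign to PDF1.4 in these 2 genotypes. AT1G66100, a further thionin gene, fell by 4.13 ± 0.54 in spch, fell by 5.82 ± 0.54 in the double mutant and fell by 4.49 ± 0.54 in scrm-D (0.000303, 9.07e-06 and 0.000172), and was like PDF2.1 highest in WT. The other 2 thionin genes, THI2.1 and AT2G15010, averaged under background in every genotype, so of 4 measured thionin genes 2 were called in each comparison with WT. In spch 1 was called higher and 1 lower (9.60% and 9.93% of all probe sets), and in the double mutant and scrm-D 2 were called lower (13.6% and 7.39%).

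**Figure D4:**
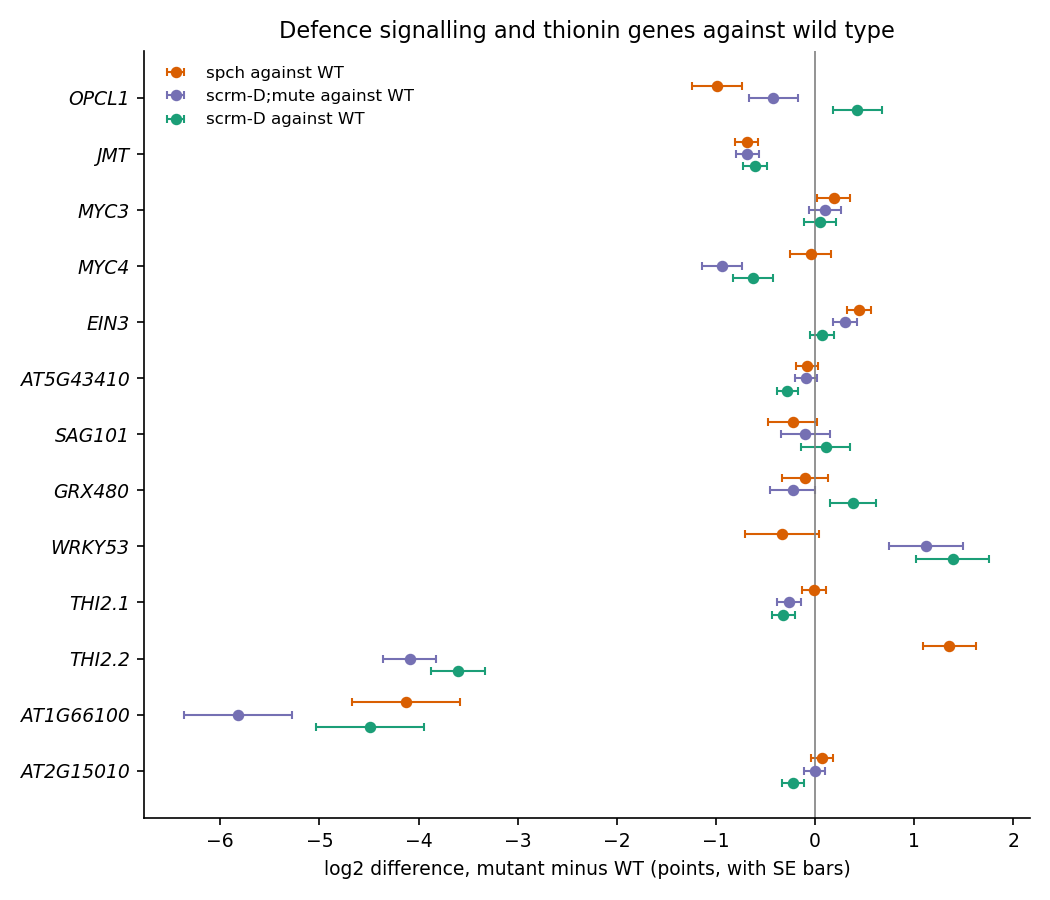
Log2 differences from WT (horizontal axis, points with SE bars from limma) of 9 defence signalling genes and 4 thionin genes (vertical axis), for spch, scrm-D;mute and scrm-D. The signalling genes lie between −0.99 and 1.39, while THI2.2 and AT1G66100 reach −4.09 and −5.82 in scrm-D;mute.

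For each defensin gene, the 3 named probe sets most like it were taken by Pearson's r over the 12 arrays, a description of arrays that share genotypes. PDF1.2 was followed by AT3G43270, which encodes a pectin methylesterase (r = 0.964), AT1G76470 (0.958) and APL4, a subunit of ADP-glucose pyrophosphorylase (0.945). AT1G76470 averaged under background in every genotype, at 4.29 in spch, 4.32 in the double mutant, 4.81 in scrm-D and 4.45 in WT. APL4 averaged 4.06 ± 0.23 in spch, 4.29 ± 0.11 in the double mutant, 6.98 ± 0.34 in scrm-D and 4.63 ± 0.19 in WT, so that, unlike PDF1.2, it was above background in scrm-D alone. PDF1.2b was followed by ARPN, a plantacyanin gene (0.953), AT4G26470 (0.953) and AT2G47550, another pectin methylesterase gene (0.950). AT2G47550 averaged above background in scrm-D alone, and AT4G26470 in scrm-D and WT alone. ARPN, with 7.52 ± 0.27 in spch, 7.52 ± 0.08 in the double mutant, 8.99 ± 0.34 in scrm-D and 8.28 ± 0.38 in WT, differed over a smaller span than PDF1.2b.

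PDF1.4 had the closest followers: ARA12, a subtilisin-like protease gene (r = 0.978), AT2G39210 (0.978) and GLR2.7, a glutamate receptor-like gene (0.971). GLR2.7 averaged 5.33 ± 0.43 in spch, 7.15 ± 0.54 in the double mutant, 7.26 ± 0.63 in scrm-D and 4.75 ± 0.12 in WT, the same order as PDF1.4 and likewise under background in WT. PDF2.1 was followed by COR15B, a cold-induced gene for a chloroplast protein of freezing tolerance (0.950), AT1G25510 (0.940) and PORB, an enzyme of chlorophyll synthesis (0.935). COR15B averaged 6.06 ± 0.23 in spch, 7.15 ± 1.39 in the double mutant, 8.58 ± 1.48 in scrm-D and 9.17 ± 1.18 in WT. It shared with PDF2.1 both the order of the genotypes and wide spreads in all genotypes but spch.

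The genes beside the members on the chromosomes, up to 4 on each side in the TAIR10.1 annotation, were chosen after the values were seen, and beyond the listed genes among them (PDF2.2, PDF2.3, PDF2.6 and JMT) no test is given. Of 8 neighbours each, 7 had a value for PDF1.2, 3 for PDF1.2b, 4 for PDF1.4 and 4 for PDF2.1. AT1G19620, 2 genes from PDF1.4, averaged 4.51 ± 0.28 in spch, 7.77 ± 0.45 in the double mutant, 7.94 ± 0.19 in scrm-D and 4.74 ± 0.16 in WT. Like PDF1.4 it was high in both scrm-D genotypes and under background in WT, but unlike PDF1.4 it was also under background in spch. AT1G19600, next to PDF1.4 on the other side, averaged 9.38 in spch, 9.22 in scrm-D and 9.12 in WT, and was lowest in the double mutant.

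PDF2.1 lies in a run of class 2 defensin genes, with PDF2.2 (named LCR69 in the annotation) 2 genes before it, PDF2.3 (LCR68) next to it and PDF2.6 (LCR72) 2 genes after it. PDF2.2 averaged 12.05 in spch and 12.17 in WT, whereas PDF2.6 was under background in every genotype, so that a fall in it would be hard to read. Of these 3, only PDF2.3 was called lower in spch and the double mutant than in WT, over a smaller span. Beside PDF1.2, AT5G44390, a berberine bridge enzyme-like gene 3 genes before it, averaged 4.42 ± 0.21 in spch, 5.85 ± 0.81 in the double mutant, 6.72 ± 0.67 in scrm-D and 4.35 ± 0.07 in WT. Its mean was highest in scrm-D as that of PDF1.2 was, and under background in spch and WT. Unlike PDF1.2, it was also above WT in the double mutant, where its range (5.18 to 6.76) overlapped that of scrm-D (6.04 to 7.38). AT5G44400, the next gene and of the same family, was highest in WT, with 6.36 ± 0.62 in spch, 5.82 ± 0.29 in the double mutant, 6.51 ± 0.08 in scrm-D and 7.83 ± 0.06 in WT.

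**Figure D5:**
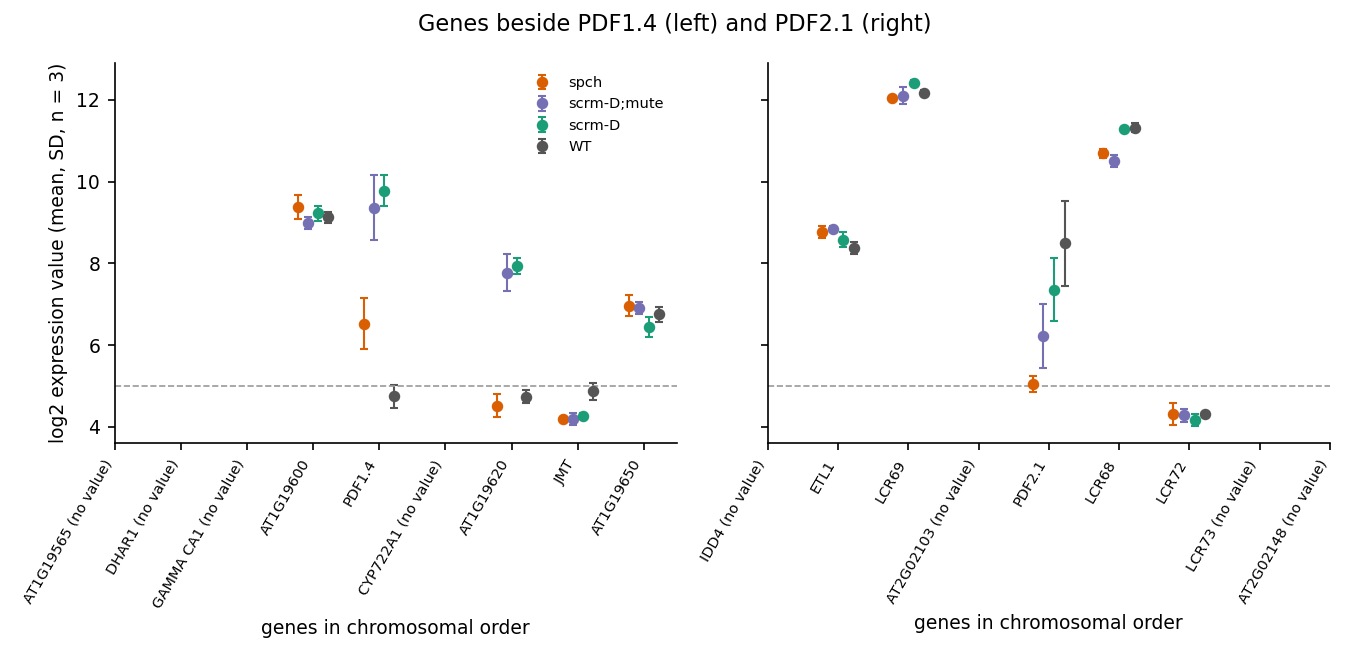
Log2 expression values (vertical axis, mean and SD of 3 arrays) by genotype of the genes up to 4 places on each side of PDF1.4 (left) and PDF2.1 (right), in chromosomal order (horizontal axis), with a dashed line at the background level of 4.99 and "no value" for genes without a named single-gene probe set. AT1G19620 lies at 7.77 and 7.94 in scrm-D;mute and scrm-D and under background in spch and WT, while PDF2.2 (LCR69) lies between 12.05 and 12.42 and PDF2.6 (LCR72) under background in all 4 genotypes.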

How the data were processed

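The authors deposited log2 values, 1 for each probe set on each array. Per the submitters' processing notes RMA and limma were used, without versions given. Per the labels' protocols, cDNA was primed with oligo-dT and amplified by in vitro transcription, which reads transcripts near their 3′ end. RMA sets arrays to a shared distribution, so changes are relative to each array's total, and the table has no detection calls. Values ran from 3.13 to 14.63, and at most 2 values were identical between arrays of a genotype.

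Of 22810 probe sets, 64 controls were left out. The log2 values of all 12 arrays entered 1 limma fit (version 3.58.1, R 4.3.3) of a mean for each genotype, with empirical Bayes moderation, and two-sided p-values were adjusted by the Benjamini-Hochberg method over 22746 probe sets, called at an adjusted p under 0.05. The scripts were tested on simulated data. The background level is the 95th percentile of 261 values of absent bacterial controls, those reading under 10. Folds against a genotype whose mean is under it use that level. Platform annotation named 1 gene for 13513 probe sets, several for 503 and none for 8794, and 13436 matched TAIR10.1, used for names, chromosomes and gene order only, since the files' build was not given in the sources used here.

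The members, lists and named genes were chosen with earlier results of these data known. Named are the 4 members, every other measured defensin gene, up to 4 called genes of each other list by adjusted p, and the 3 probe sets most like each member. Other genes named were chosen after their values were seen. Alternatives were a replicate block, array weights, an eBayes trend, renormalization, a filter on low values, 2-genotype fits, a 25S rRNA covariate and single arrays left out. To check for pairing by replicate number, deviations from genotype means were correlated between arrays. Same-number r was 0.138 to 0.174 for spch with WT, 0.103 to 0.299 for scrm-D with WT and 0.215 to 0.525 for scrm-D;mute with scrm-D. In each of these it lay above every different-number r, which was counted as pairing. For scrm-D;mute with WT it was 0.0826 to 0.250, and a different-number r reached 0.0915, so pairing is not settled there. The main fit leaves pairing out, and counts with the replicate block are given below. What a number marks is not in the labels.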

Additional observations from a re-analysis of the deposited data

Results flagged for a closer look

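Bacterial control transcripts had a different one at a high level in each genotype: lys at 12.00 to 12.97 in spch, trp at 12.10 to 13.27 in scrm-D;mute, phe at 12.70 to 13.99 in scrm-D and dap at 12.49 to 14.43 in WT. This matched the labelled genotype on all 12 arrays. Outside the measurements reported on above, the phe control read 6.61 on scrm-D;mute replicate 4 at its highest probe set, where the other 8 arrays without that transcript read 5.41 to 5.88. All 6 phe probe sets read higher on that array than on any of those 8. On the same array PDF1.2 read 5.83, PDF1.2b 6.36, PDF1.4 10.26 and PDF2.1 5.31, and in scrm-D;mute only PDF1.2b and PDF1.4 were highest there. A part of this signal in the defensin values was not tested.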

How the results depend on the processing

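Of 456 values under alternatives 436 stayed within the limits set for them, and none of the 288 member differences among them changed sign. Many of these 288 could not move, so both counts overstate stability. A member difference stays the same when an array of a genotype not compared is left out. It also stays the same with the replicate block, since each number occurs once in each genotype. With the 25S rRNA control as a covariate, 2108 probe sets were called between spch and WT, against 4442, and 3736 between scrm-D;mute and WT, against 6297, 2 defence list genes were called between spch and WT, against 4, PDF2.1 differed by −4.28 between spch and WT and PDF1.4 by a fitted 5.47 between scrm-D and WT, with WT under background. Without replicate 4 of every genotype, chosen after the data were seen, PDF1.2b differed by 1.61 between scrm-D and WT and by −2.11 between scrm-D;mute and WT. Leaving out single arrays gave 2955 to 4596 probe sets for spch against WT, 2127 to 3496 for scrm-D against WT and 1962 to 3333 for scrm-D;mute against scrm-D, the lowest counts being without spch replicate 4, scrm-D replicate 4 and scrm-D;mute replicate 3, and 1968 without scrm-D;mute replicate 2. Defence list genes then numbered 2 to 4, 1 to 3 and 1 to 3 in these comparisons. The causes were not tested. With the replicate block 5416, 4073, 7219 and 3956 probe sets were called for spch, scrm-D and scrm-D;mute against WT and scrm-D;mute against scrm-D, and 5, 3, 5 and 3 defence list genes. Values near the background level limit what can be said of PDF1.4 in WT, PDF2.1 in spch, and PDF1.2b in spch and scrm-D;mute.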
